A study of Mus musculus with 6 samples.

Results

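The genes described here are the mouse Zfp genes that lie next to other Zfp genes on a chromosome. They were chosen from the rows of a gene count table as protein-coding genes named Zfp and a number, other than Zfp36, with a total of at least 60 counts over 6 libraries and at least 1 other such gene within 100 kb. Of 55335 rows, 364 carried such a name and 307 of these reached 60 counts. Of these, 175 had a neighbour among the 307, while 132 had none within 100 kb and are called isolated. Finger genes with other names or fewer counts were not considered as neighbours. The 175 members formed 41 clusters on 14 chromosomes, here named by chromosome and a letter (7A, 7B and so on). The total count, summed over both conditions, was the measured value used in the choice, so levels near the limit are given only as a description. Just inside it were Zfp972 with 64 and Zfp960 with 67 counts, and just outside Zfp37 and Zfp977 with 57 each. Zfp605 and Zfp932, 99680 bp apart, were the members nearest the distance limit, and Zfp141 at 103785 bp was the nearest gene beyond it.

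The libraries held total RNA of bone marrow-derived macrophages (BMDMs), cells grown from the marrow of C57BL/6 mice (library names say WT) for 6 d in medium with L929-conditioned supernatant, a source of macrophage growth factor. For 1 h the cells received either PBS, the vehicle (3 libraries), or LPS, a bacterial cell wall component that activates macrophages through TLR signalling (3 libraries). The comparison asks which transcripts had changed at this early time. Labels number the replicates 1 to 3 in each group and give the same numbers as batches, but do not say whether they are separate animals or cultures, so p-values measure the spread between these samples, which may be technical. Library totals were 37787611 to 41516330 counts. All 8 macrophage markers listed were found, at summed levels of 29745 to 31027 CPM (counts scaled to a common library size by TMM) with PBS and 32512 to 32856 CPM with LPS. Most of this sum was Lyz2, at a mean of 23272 CPM with PBS and 24224 CPM with LPS. Fcgr1 was lower with LPS (396 and 284 CPM), Mertk overlapped between groups, and Adgre1, Cd68, Csf1r, Itgam, Lyz2 and Spi1 were higher. Ly6g, which marks neutrophils, had at most 3 counts in every library, and the summed markers of B cells, fibroblasts, erythroid cells and mast cells stayed at or below 14.3 CPM. Of 4 dendritic cell genes listed, 3 rose (adjusted p under 0.05 and log2 fold change above 1, as did 10.5% of all genes tested). The sum of the 4 was 2.17 to 2.86 CPM with PBS and 7.11 to 7.90 CPM with LPS. Reads of the 3 were few, at 43, 35 and 47 for Flt3, 19, 18 and 18 for Zbtb46 and 2, 1 and 2 for Xcr1 in PBS replicates 1 to 3. The sums ran from 43.4 to 46.5 CPM with PBS and from 57.1 to 61.5 CPM with LPS for 7 neutrophil genes, and from 21.1 to 22.8 CPM and from 31.4 to 31.8 CPM for 5 T cell genes, nearly all of it Cd4, as Cd3d, Cd3e and Cd3g had at most 9 counts in any library, and the part of other cells in the results was not tested. In bulk RNA, fewer cells of a type and less RNA per cell cannot be told apart.

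Zfp genes encode proteins with zinc fingers, small folds held by a zinc ion that each read a few DNA bases, and strings of fingers let each protein recognise its own sequence. Many carry a KRAB domain at the amino end, which recruits the corepressor TRIM28 (also called KAP1) and, through it, the histone methyltransferase SETDB1 and HP1 proteins to silence transposable elements and some genes. The family grew by local duplication, and many of its genes lie in rows. In the coding sequences of the annotation, 173 of the 175 members held at least 3 finger patterns, with a median of 12, against a median of 9 in the isolated genes. A stretch like the KRAB domain was found in 144 members (82.3%) and in 43 isolated genes (32.6%), by a profile that can miss divergent forms.

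At 1 h of LPS, clustered Zfp transcripts were lower in most of the family. By edgeR's quasi-likelihood test, 117 of 175 members fell (adjusted p under 0.05 and log2 fold change below -1, 66.9%), where 10.4% of all 15687 genes tested fell. In the other direction, 6 members rose (3.43%), where 10.5% of all genes rose. The other 52 did not pass both limits, although only 3 of all 175 had an adjusted p of 0.05 or more. Among protein-coding genes alone, 7.40% fell and 9.09% rose. At adjusted p under 0.05 without a limit on size, 161 members were lower and 11 higher, against 34.9% lower and 32.9% higher of all genes, all with TMM. With library size alone, 163 members were lower and 8 higher, and no share of all genes is given for these 2 counts. The median log2 fold change was -1.41 (quartiles -2.08 and -0.85) over the members and -0.01 over all genes tested. In 161 members every LPS library was below every PBS library (36.6% of all genes), in 10 every LPS library was above (33.9%), and in 4 the groups overlapped. A fall of at least 4-fold was seen in 49 members, and in 2.48% of all genes. All 175 passed the filter on low counts, although 10 had under 30 counts in the 3 LPS libraries together. The median of the members was also -1.41 with the 1 member at the floor set to its bound. Scaling by library size alone moved the median of all genes by -0.40. It gave 151 members that fell, where 18.9% of all genes fell, and the same 6 that rose.

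**Figure D1:**
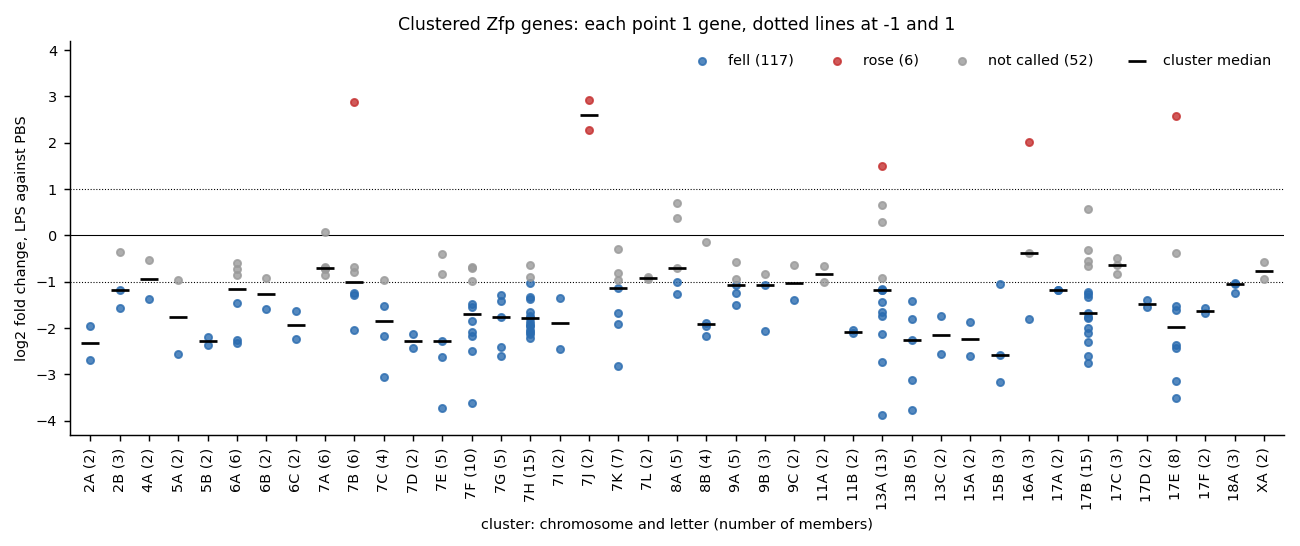
Log2 fold change of each of the 175 clustered Zfp genes (points, vertical axis, LPS against PBS) by cluster (horizontal axis, number of members in brackets), with the cluster median as a black bar. Blue points fell, red points rose and grey points did not pass both limits. Of 41 medians, 40 lie below 0, and 7J is the exception.

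Positions given here are those of GENCODE M21 on GRCm38. The lowest values came from members whose transcripts were at low to moderate levels in resting cells. Zfp457 (ENSMUSG00000055341.10, chr13:67288138-67306485), a KRAB zinc finger gene of cluster 13A, had 21, 37 and 29 reads in PBS replicates 1 to 3 and 0, 3 and 1 reads in LPS replicates 1 to 3. All LPS libraries were thus at or under a floor of 3 counts, and against that floor (0.0898 CPM) the gene was at least 7.01-fold lower than its PBS mean of 0.630 ± 0.189 CPM (SD, n = 3). The fitted log2 fold change of Zfp457 depends on single reads and was -3.87, or -5.14 without LPS replicate 2.

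Zfp273 (ENSMUSG00000030446.17, chr13:67813740-67827002) of cluster 13B stood at 5.02, 5.02 and 4.81 CPM with PBS and at 0.268, 0.368 and 0.441 CPM with LPS. Every LPS library was far below the lowest PBS library, and the log2 fold change was -3.77 ± 0.17 (SE, edgeR, adjusted p = 1.12e-12). Zfp128 (ENSMUSG00000060397.6, chr7:12881177-12893422) of cluster 7E stood at 7.16, 6.18 and 6.61 CPM with PBS and at 0.328, 0.827 and 0.353 CPM with LPS. Replicate 2 was the highest of the LPS libraries in Zfp128, still below every PBS library, and the log2 fold change was -3.73 ± 0.20 (SE, edgeR, adjusted p = 8.64e-12). Zfp108 of cluster 7F stood at 2.94, 3.45 and 3.32 CPM with PBS and at 0.268, 0.276 and 0.235 CPM with LPS. Its groups did not overlap, and its log2 fold change was -3.62 ± 0.20 (SE, edgeR, adjusted p = 2.28e-11). Zfp763 of cluster 17E stood at 6.80, 6.49 and 6.35 CPM with PBS and at 0.417, 0.551 and 0.735 CPM with LPS. The LPS values of Zfp763 were again all below the PBS values, with a log2 fold change of -3.52 ± 0.16 (SE, edgeR, adjusted p = 6.96e-13). The next 7 by the same order were Zfp647, Zfp563, Zfp85, Zfp773, Zfp553, Zfp760 and Zfp455, with log2 fold changes from -3.16 in Zfp647 to -2.74 in Zfp455 and no overlap between groups in any of them. Of these 12, all but Zfp553 carried a KRAB-like stretch.

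**Figure D2:**
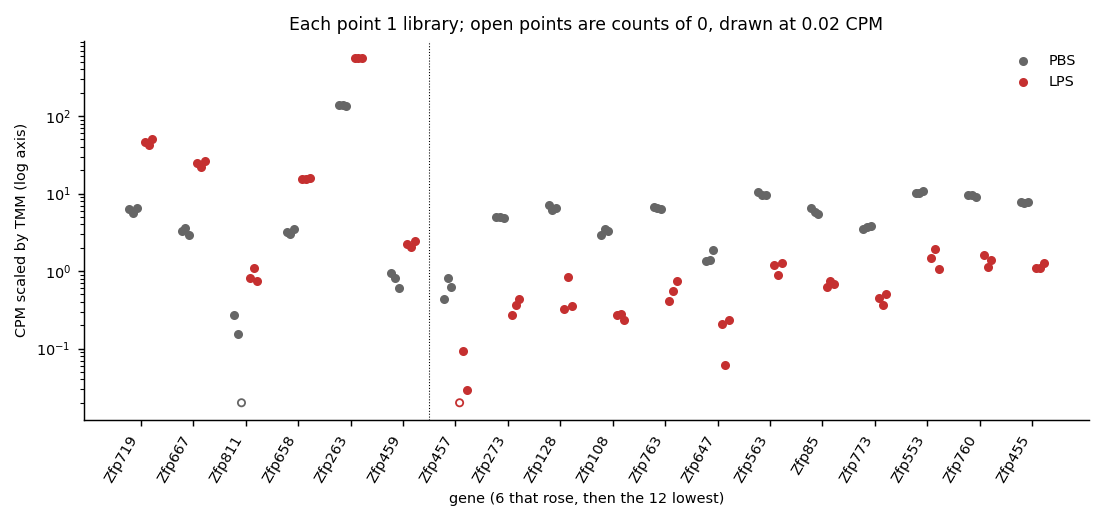
CPM of each library (points, logarithmic vertical axis) for the 6 members that rose and the 12 with the lowest log2 fold change (horizontal axis), PBS in grey and LPS in red, with counts of 0 as open points at the bottom. No gene shown has overlapping groups, which the choice by fold change makes likely. Zfp263, at 138 CPM with PBS and 560 CPM with LPS, stands above the others.

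The 6 members that rose did so against this direction. The largest in level was Zfp263 (ENSMUSG00000022529.11, chr16:3744093-3750790) of cluster 16A, whose human counterpart is known as a DNA-binding repressor with a SCAN domain, a protein dimerisation fold. Zfp263 stood at 139, 138 and 137 CPM with PBS and at 556, 562 and 561 CPM with LPS. It was the member with the highest mean CPM, every LPS library was above every PBS library, and its log2 fold change was 2.02 ± 0.03 (SE, edgeR, adjusted p = 1.26e-19). The other 2 members of 16A did not follow it, since Zfp174 fell (log2 fold change -1.81 ± 0.16 SE, adjusted p = 1.10e-08) and Zfp597 had a log2 fold change of -0.39. On its other side, the nearest tested coding gene was Mefv, which encodes the inflammasome sensor pyrin, at 25995 bp, with a log2 fold change of 2.68.

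The pair Zfp658 (ENSMUSG00000056592.14, chr7:43562256-43575461) and Zfp719 (ENSMUSG00000030469.10, chr7:43579610-43593235) makes up cluster 7J, the only cluster in which every member rose. Zfp719 stood at 6.28, 5.67 and 6.55 CPM with PBS and at 46.8, 42.8 and 50.6 CPM with LPS, a log2 fold change of 2.92 ± 0.07 (SE, edgeR, adjusted p = 8.27e-17). This was the largest log2 fold change of all members. Zfp658 stood at 3.17, 3.03 and 3.47 CPM with PBS and at 15.5, 15.5 and 15.8 CPM with LPS, a log2 fold change of 2.27 ± 0.08 (SE, edgeR, adjusted p = 3.43e-14). In both genes the 3 LPS libraries lay above the 3 PBS libraries. They lie 4148 bp apart on the same strand, and the nearest tested coding genes outside them were Cd33, which encodes a sialic acid-binding receptor of myeloid cells, at 17827 bp (log2 fold change 1.82), and Siglece, another such receptor, at 57834 bp (0.47).

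Zfp667 (ENSMUSG00000054893.15, chr7:6286579-6307883), also known as Mipu1 from its induction in the heart by ischaemia, stood at 3.34, 3.56 and 2.95 CPM with PBS and at 24.6, 21.9 and 26.0 CPM with LPS. All LPS libraries were above all PBS libraries, and its log2 fold change was 2.88 ± 0.09 (SE, edgeR, adjusted p = 2.78e-15). Its neighbours in cluster 7B did not rise: Zfp583, 7776 bp away, fell (log2 fold change -1.24 ± 0.19 SE, adjusted p = 1.60e-05), as did Zfp78 (-2.04) and Zfp28 (-1.28). Zfp811 of cluster 17E had 13, 7 and 0 reads with PBS and 27, 36 and 25 reads with LPS. Its groups did not overlap and the log2 fold change was 2.59 ± 0.47 (SE, edgeR, adjusted p = 9.36e-05), but at so few reads single libraries weigh heavily, and it was 3.46 without PBS replicate 1 and 2.01 without PBS replicate 3. Zfp459 of cluster 13A stood at 0.945, 0.819 and 0.607 CPM with PBS and at 2.26, 2.05 and 2.41 CPM with LPS, again without overlap (log2 fold change 1.50 ± 0.19 SE, edgeR, adjusted p = 1.22e-06). Exons of Zfp459 overlap an annotated antisense gene, and the strand setting of the counting is not given in the sources used here, so its reads could in part be those of the other strand.

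Cluster by cluster, the median log2 fold change was below 0 in 40 of 41 clusters and below -1 in 32. Every member fell in 15 clusters, which held 38 members, among them 7G (5 members, from Zfp60 at -2.60 to Zfp626 at -1.28) and 13B (5 members, from Zfp273 at -3.77 to Zfp738 at -1.41). In 6 clusters no member fell past the criteria, namely 7A, 7J, 7L, 11A, 17C and XA. Cluster 7A, 6 genes of chromosome 7 in none of which a KRAB-like stretch was found, ranged from Zfp524 at -0.86 to Zfp628 at 0.07. Zfp628 stood at 5.17, 6.35 and 5.77 CPM with PBS and at 6.11, 6.43 and 5.64 CPM with LPS, so its groups overlapped (adjusted p = 0.529), and its sign turned with library size alone, with upper quartile scaling and without PBS replicate 1.

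As the sum of a cluster's CPM per library, 37 clusters were lower in every LPS library than in any PBS library and 3 were higher, namely 7J, 8A and 16A. The direction of 8A depended on the scaling, since with library size alone only 7J and 16A were higher and 39 clusters were lower, and with upper quartile scaling the sums of 8A overlapped. In 8A, Zfp869 stood at 34.2, 31.7 and 33.1 CPM with PBS and at 51.0, 51.7 and 57.4 CPM with LPS (log2 fold change 0.69 ± 0.05 SE, edgeR, adjusted p = 7.88e-10), while Zfp964, 1 of its 2 members that fell, had a log2 fold change of -1.27. In 7B the sums overlapped, at 53.1, 57.9 and 55.5 CPM with PBS and 52.0, 49.4 and 54.4 CPM with LPS. In 16A the sum went from 158 to 159 CPM with PBS to 571 to 576 CPM with LPS, nearly all of it Zfp263. Summed over all 175 members, transcripts amounted to 2363, 2273 and 2324 CPM with PBS and 1703, 1681 and 1751 CPM with LPS, so that the LPS mean was 73.8% of the PBS mean. Without Zfp263 the sums were 2182 ± 44.7 CPM (SD, n = 3) with PBS and 1152.0 ± 36.0 CPM with LPS, or 52.8%.

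The 2 largest clusters held 15 members each. In 7H (chr7:29768552-30169750 of GRCm38) 13 of 15 fell, and all 15 were lower at adjusted p under 0.05, from Zfp566 at -2.21 (-2.82 without LPS replicate 1) to Zfp568 at -0.65. Zfp568, which represses a placental promoter of the growth factor gene Igf2 in embryos, stood at 14.2, 14.1 and 14.1 CPM with PBS and at 9.06, 8.95 and 9.08 CPM with LPS, without overlap (edgeR, adjusted p = 9.96e-08). In 17B (chr17:21383748-22225616) 11 of 15 fell, with Zfp760 lowest at -2.76, and Zfp948 alone was higher, at 0.57 ± 0.09 (SE, adjusted p = 1.75e-05). Zfp948 stood at 7.75, 6.75 and 8.21 CPM with PBS and at 10.9, 10.6 and 12.3 CPM with LPS, which do not overlap, and with library size alone its log2 fold change was 0.17 and no longer past the threshold.

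Cluster 13A (chr13:67038596-67553830) held 13 members, all with a KRAB-like stretch, and 9 fell. Its 3 higher members, Zfp456, Zfp429 and Zfp459, lay next to each other, with log2 fold changes of 0.29, 0.66 and 1.50, while the members on either side were lower, with Zfp953 at -0.93 and Zfp58 at -1.65. Zfp429 stood at 8.78, 7.37 and 7.69 CPM with PBS and at 13.3, 11.3 and 13.2 CPM with LPS, without overlap (edgeR, adjusted p = 2.29e-06). Zfp456 stood at 7.46, 5.64 and 5.87 CPM with PBS and at 8.11, 7.23 and 7.96 CPM with LPS, where PBS replicate 1 was above the lowest LPS library, and its sign turned with scaling by library size alone. Exons of Zfp456 also overlap other annotated genes, so its value is uncertain.

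**Figure D3:**
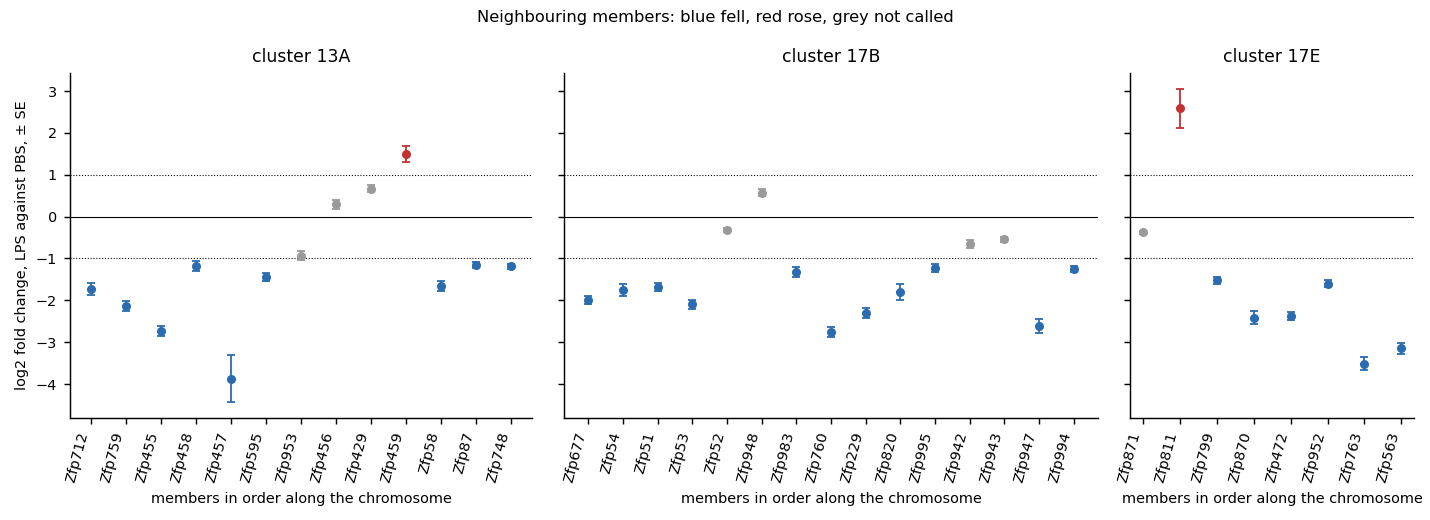
Log2 fold change (vertical axis, error bars ± SE derived from edgeR's test) of the members of clusters 13A, 17B and 17E in their order along the chromosome (horizontal axis). Blue fell, red rose and grey did not pass both limits. In 13A the 3 members above 0 stand side by side, in 17B and 17E a single member is above 0.

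Of 134 pairs of members next to each other in a cluster, 71 both fell, 1 both rose and in 4 one fell and the other rose. The count of 71 cannot be read against the 66.9% of single members that fell, since both genes of a pair must fall. The median absolute difference in log2 fold change was 0.65 between neighbours and 0.89 between members of different clusters, given as a description since the pairs share genes. This difference was 0.44 in 25 pairs whose start sites faced away from each other, 0.37 in 26 pairs pointing towards each other and 0.73 in 83 on the same strand. In 3 pairs of the first kind the start sites lay within 1000 bp, and none of their genes passed both limits. Values were -0.91 and -0.94 in Zfp668 and Zfp646 (607 bp apart), -0.66 and -0.54 in Zfp942 and Zfp943 (88 bp) and -0.83 and -0.49 in Zfp944 and Zfp758 (53 bp). In the other pair with start sites this close, Zfp882 and Zfp617 of cluster 8B, on the same strand, 27 bp apart and with 104 bp of shared exon, the values differed, since Zfp882 fell (-1.95) and Zfp617 had a log2 fold change of -0.14 (edgeR, adjusted p = 0.124).

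Cluster 7E (chr7:12804977-12985714) had the lowest median of the clusters with at least 4 members, -2.28, and its members diverged. Zfp128 at -3.73, Zfp324 at -2.61 ± 0.11 and Zfp329 at -2.28 ± 0.08 (SE) fell, while Zfp446 at -0.84 and Zfp110, which encodes a partner of the neurotrophin receptor p75, at -0.40 did not pass the criteria. Zfp110 stood at 45.1, 41.5 and 43.1 CPM with PBS and at 31.6, 32.3 and 34.2 CPM with LPS, which do not overlap (adjusted p = 5.67e-07). As a description of the control regions of neighbours, the bases before the RefSeq start sites (GRCm38.p6) are printed for the 4 of the 5 genes that have an entry, Zfp329 (chr7:12818861-12819110, minus strand), Zfp110 (chr7:12834511-12834760), Zfp128 (chr7:12880928-12881176) and Zfp324 (chr7:12965588-12965837, all plus strand), 5′ to 3′ on the gene's strand. Capitals mark matches on either strand to the motifs of AP-1 (TGANTCA), ETS factors (CCGGAAG), NF-Y (CCAAT), the GC box (GGGCGG) or the promoter element TATAAA, which is called TATA box.
Zfp329: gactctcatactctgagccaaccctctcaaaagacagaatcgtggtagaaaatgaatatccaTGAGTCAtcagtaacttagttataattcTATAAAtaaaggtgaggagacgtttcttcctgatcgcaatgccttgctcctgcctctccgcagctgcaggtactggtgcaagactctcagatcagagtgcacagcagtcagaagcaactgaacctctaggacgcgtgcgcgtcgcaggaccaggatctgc
Zfp110: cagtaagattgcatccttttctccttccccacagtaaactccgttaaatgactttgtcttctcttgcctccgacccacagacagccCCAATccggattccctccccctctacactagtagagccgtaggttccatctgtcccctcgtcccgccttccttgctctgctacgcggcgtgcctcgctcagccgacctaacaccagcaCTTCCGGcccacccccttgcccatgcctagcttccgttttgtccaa
Zfp128: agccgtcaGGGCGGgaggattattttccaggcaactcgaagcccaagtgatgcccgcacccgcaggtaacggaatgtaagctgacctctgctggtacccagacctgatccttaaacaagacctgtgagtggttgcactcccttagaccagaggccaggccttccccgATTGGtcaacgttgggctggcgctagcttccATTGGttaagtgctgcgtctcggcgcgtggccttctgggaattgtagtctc
Zfp324: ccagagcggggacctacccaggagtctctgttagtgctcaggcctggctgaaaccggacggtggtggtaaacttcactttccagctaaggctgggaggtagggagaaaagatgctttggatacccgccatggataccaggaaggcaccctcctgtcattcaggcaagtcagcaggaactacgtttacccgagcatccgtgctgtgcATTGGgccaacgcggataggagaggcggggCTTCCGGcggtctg
Zfp110, which did not pass the criteria, and Zfp324, which fell, each held an ETS and an NF-Y match. Zfp128 held a GC box and 2 NF-Y matches, and Zfp329 an AP-1 and a TATA match. Whether these motifs have a part in the values was not tested.

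The windows of the pair that rose, Zfp658 (chr7:43562120-43562255, plus strand, ending before the GENCODE start) and Zfp719 (chr7:43579336-43579585, plus strand), are printed for comparison and were chosen after their values were seen. Capitals mark the NRF1 motif CGCATGCG and, in Zfp658, the NF-Y motif on the other strand.
Zfp658: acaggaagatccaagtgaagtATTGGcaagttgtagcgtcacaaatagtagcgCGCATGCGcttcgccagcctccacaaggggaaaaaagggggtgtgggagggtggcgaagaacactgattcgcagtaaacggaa
Zfp719: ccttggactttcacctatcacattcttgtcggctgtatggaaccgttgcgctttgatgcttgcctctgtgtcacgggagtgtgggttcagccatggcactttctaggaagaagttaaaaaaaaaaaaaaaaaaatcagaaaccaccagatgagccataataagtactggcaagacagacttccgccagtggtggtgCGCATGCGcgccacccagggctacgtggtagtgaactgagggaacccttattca
Both held the NRF1 motif, which was in 3.03% of 165 windows of 151 members with an entry and in 1.55% of all 32851 windows, each searched over 250 bases, but in 5.67% of 141 windows of isolated Zfp genes. Over those 165 windows, the ETS motif was in 28 (6.91% of all windows held it), the NF-Y motif in 49.1% (33.8%), the cAMP element TGACGTCA in 4.24% (1.55%), the GC box in 32.1% (32.7%), the TATA box in 6.67% (12.4%) and AP-1 in 3.64% (6.75%). In the windows of isolated genes the ETS motif was in 28 of 141 (19.9%), the NF-Y motif in 43.3%, the cAMP element in 3.55% and the GC box in 51.8%, so the shares of the ETS, NRF1 and GC box motifs were higher there than in members. The NF-kB motif GGANTTTCC was in 4 windows of members (2.42%, against 1.07% of all), none of them of a gene that rose. The median number of CG pairs was 9 in member windows, 14 in those of isolated genes and 6 in all. The letters searched can overlap one another, and a match is a description of the letters only.

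By domain, 102 of the 144 members with a KRAB-like stretch fell (70.8%) and 5 rose, with a median log2 fold change of -1.53. Of the 31 without it, 15 fell (48.4%) and 1, Zfp263, rose, with a median of -0.998, and the profile may have missed a divergent stretch in Zfp263. Among the isolated genes 47 of 132 fell (35.6%) and 7 rose, with a median of -0.48. Isolated genes with a KRAB-like stretch fell in 27 of 43 cases (62.8%, median -1.21) and those without in 20 of 89 (22.5%, median -0.25). The share of genes with a KRAB-like stretch thus moved with the difference between clustered and isolated genes, and its part in that difference was not tested. A SCAN-like stretch was found in 9 members, of which 5 fell (Zfp287, Zfp174, Zfp213, Zfp397 and Zfp24), 1 rose (Zfp263) and 3 did not pass both limits.

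**Figure D4:**
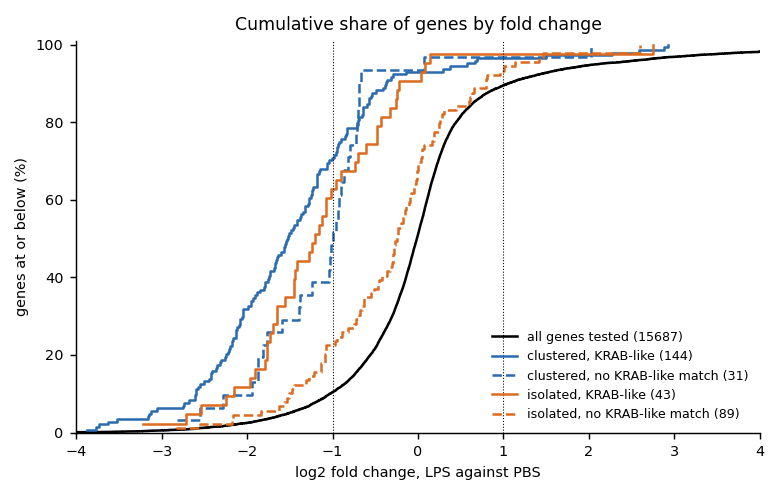
Cumulative share of genes (vertical axis, %) at or below a log2 fold change (horizontal axis, LPS against PBS), for all genes tested in black, clustered Zfp genes in blue and isolated Zfp genes in orange, with a KRAB-like stretch (solid) or without (dashed). At -1 the curves of KRAB-like genes are the highest, and the black curve of all genes is the lowest.

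Several members have a role known from other cells. Zfp445, which with ZFP57 maintains methylation at imprinted genes, was among the 3 members with the highest mean level, at 91.8, 89.7 and 92.3 CPM with PBS and 59.1, 54.8 and 60.7 CPM with LPS (log2 fold change -0.65 ± 0.04 SE, edgeR, adjusted p = 9.58e-11). Zfp809, which silences murine leukaemia virus through its primer binding site, stood at 13.1, 11.8 and 11.8 CPM with PBS and at 6.35, 6.92 and 7.20 CPM with LPS (log2 fold change -0.84 ± 0.08 SE, adjusted p = 4.60e-08). Zfp746, which encodes the repressor PARIS, a substrate of the ubiquitin ligase parkin, stood at 21.8, 20.8 and 21.3 CPM with PBS and at 14.4, 12.9 and 11.6 CPM with LPS (log2 fold change -0.72). Zfp932, known to silence endogenous retroviruses, went from 6.35 ± 0.781 to 3.28 ± 0.452 CPM (log2 fold change -0.95), and 18.2% of its transcript stretches of read length also occur in other transcripts. In these 4 genes no LPS library reached the lowest PBS library. Zfp871, at 113 ± 3.73 CPM with PBS and 86.9 ± 4.18 CPM with LPS, completed the 3 members with the highest mean (log2 fold change -0.37 ± 0.04 SE, adjusted p = 1.82e-07). The 4 genes named here for their role were picked by that role with their values known.

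Levels differed widely between members, from 64 to 75279 counts in total with a median of 1566. Per kb of exon, of 3 equal parts the one with the lowest PBS level held 59 members, of which 49 fell and 2 rose (median log2 fold change -1.87), the middle part 58 members, of which 41 fell (-1.58), and the highest part 58, of which 27 fell and 4 rose (-0.96). Across the 175 members, the log2 fold change had a Spearman correlation of 0.27 with the PBS level per kb, which enters both measures, and of -0.16 with the number of fingers, -0.18 with the distance to the nearest member, -0.06 with exon length and 0.02 with the share of stretches found in other genes. These are descriptions over genes, which are not independent.

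Between the members lay 35 other protein-coding genes with at least 60 counts, of which 34 were tested. Of these, 13 fell (38.2%, against 10.4% of all genes tested) and 1 rose (2.94%, against 10.5%). Some held at least 3 finger patterns but have names outside the rule, among them Zfp genes with a letter after the number. These fell in 9 of 14 cases (64.3%), among them Rslcan18 (-2.23), Gm17655 (-1.82) and Zfp874b (-1.38), and the median log2 fold change of the 14 was -1.49. Of those that did not fall, Zfp607a was higher (0.28, edgeR, adjusted p = 0.00188) and Rsl1 stood at -0.07 (adjusted p = 0.554). Of the 17 tested with fewer fingers, 2 fell (11.8%, near the share of all genes) and 1 rose (5.88%), with a median of 0.02. In 3 more, of which 2 fell, no finger count was made. The gene that rose was Itgal, an integrin chain inside cluster 7K, at 14.9 ± 0.730 CPM with PBS and 43.1 ± 0.631 CPM with LPS (SD, n = 3), where 4 of 7 members fell.

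The cofactors through which KRAB proteins act showed much smaller differences. Of a list of 20 genes for TRIM28, HP1 and associated silencing factors, 1 fell (5.0%, against 10.4% of all genes tested) and 0 rose (10.5% of all genes). The 1 that fell was Atf7ip (log2 fold change -1.09 ± 0.04 SE, edgeR, adjusted p = 6.63e-14), which encodes the partner that stabilises SETDB1. At adjusted p under 0.05 with TMM, 13 were lower (65.0%, against 34.9% of all genes) and 4 higher (32.9% of all genes were higher). With library size alone these counts were 18 and 0. The median was -0.19, while upper quartile scaling gave -0.33 and library size alone gave -0.59. Trim28 went from 104 ± 0.911 to 89.9 ± 2.64 CPM (log2 fold change -0.21) and Setdb1 from 69.7 ± 2.60 to 57.4 ± 1.74 CPM (-0.28), both SD with n = 3. With library size alone as scaling, 2 genes of the list fell, where 18.9% of all genes fell.

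Duplicated genes share sequence, and how reads with several matching places were counted is not given in the sources used here. In 19 members over 10% of the stretches of read length in their transcripts also lay in transcripts of another gene, most in Zfp960 (68.0%, with Zfp97), and 113 shared none. Without those 19, 107 of 156 fell and 6 rose. Exons of 48 members overlapped an exon of another gene, and without these 88 of 127 fell and 5 rose.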

How the data were processed

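Total RNA of BMDMs was measured in 3 PBS and 3 LPS libraries, grouped by their labels. Per the labels, libraries were made with a stranded total RNA kit. The authors used HISAT2 2.1.0 (GRCm38, paired reads of 101 bp) and SAMtools 1.17 and deposited unnormalized counts per gene from featureCounts 2.0.0. The annotation release, strand setting and treatment of multi-mapping reads are not given in the sources used here.

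Of 55335 identifiers, 55154 matched GENCODE M21 without version, and coordinates come from it. From the counts, edgeR 4.0.16 in R 4.3.3 was run with filterByExpr (15687 genes), TMM scaling, the quasi-likelihood test and Benjamini-Hochberg adjustment over all genes tested. CPM values are scaled by TMM. Each SE was derived as the absolute log2 fold change divided by the square root of the F statistic of edgeR's test. A floor of 3 counts was used for genes at or near 0, which takes in only the error of counting, as reads without molecular identifiers are not independent molecules. Mean TMM factors were 1.15 with PBS and 0.869 with LPS. The functions were tested on simulated counts. KRAB-like stretches were scored with a profile of 40 residues built from 85 proteins of the annotation, and promoter sequences are those of RefSeq.

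The members, lists and rules were chosen with earlier results of these data known. Genes were named as the 12 lowest and 6 highest members, the extremes of clusters with at least 4 members, those that rose, the 3 with the highest mean CPM and those at the limits of the choice. Others were chosen after their values were seen. The reported fit has no block, and since same-numbered samples share a batch number in the labels, a fit with the number as a term was an alternative. The correlations of their deviations from the group means were -0.01, 0.08 and 0.04. Alternatives were other scalings, filters, DESeq2 1.42.0, limma 3.58.1 voom, a replicate block, each library left out, other distances, a total of 300 counts, and members with shared or overlapping sequence left out.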

Additional observations from a re-analysis of the deposited data

How the results depend on the processing

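The count of members that fell ranged from 115 to 118 and the count that rose was 6 in the fits with 1 library less, and the median log2 fold change then lay between -1.43 and -1.40. Of the 117 that fell in the reported fit, 112 to 115 also fell in each of these fits, so some members changed their call. In the fit with a replicate block the same 117 fell and the same 6 rose, and among the members the block took only Zfp114 past the limit of the test (adjusted p = 0.0486 without and 0.0676 with it, edgeR). DESeq2 gave 113 and 6, limma voom 117 and 6, and a filter of 10 counts in every library 108 and 5 of 162 tested. The median of the members moved to -1.82 with library size alone, -1.56 with upper quartile scaling, -1.34 with clusters joined within 50 kb, -1.46 without members of shared sequence and -1.46 without overlapping exons. Library size alone gave 151 members that fell, against 18.9% of all genes, and moved the share of all called genes that rose from 50.4% to 29.0% (members, 4.88% and 3.82%). The summed LPS level was 55.7% of PBS with scaling by library size and 66.8% with that by upper quartile. With library size alone, 2 genes of the cofactor list fell. The sign of Zfp628 turned with library size alone (-0.33), upper quartile scaling (-0.069) and without PBS replicate 1 (-0.0014, with 0.15 as the highest value with 1 library less), and with library size alone also that of Zfp456 (-0.11) and Zfp868 (-0.031). Of the genes named, Zfp747, Zfp948, Zfp456 and Zfp868 also lost, and Zfp617 gained, an adjusted p under 0.05 under some settings. Apart from the settings' own construction (scaling, fewer genes or members), the cause was not tested. Depth limits the members with under 30 counts in LPS.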
